A study of Drosophila melanogaster with 10 samples.

Results

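Small nucleolar RNAs (snoRNAs) are short noncoding RNAs that were followed here through Drosophila muscle development and Rbf knockdown. Members were taken by symbol: every gene whose FlyBase symbol begins with snoRNA: was kept if the transcript with its highest total held at least 100 counts over the 10 libraries. That left 237 of the 243 snoRNA genes in the count table, among 15259 genes in all. The total count chose the members, so their being detected is no finding. Just outside were Me18S-A469 with 97 counts and Me28S-A2589a with 91, and just inside were U31:54Eb with 102 and Me28S-U2134b with 107. Without the 6 notum libraries 115 of the 237 would have stayed below the minimum, and without the 4 flight muscle libraries 6 would have, so many members entered through the tissue where they are high. Leaving out a single group would have removed 18 (notum WT), 19 (notum Rbf-KD), 0 (muscle WT) or 5 (muscle Rbf-KD). Symbols are given below without the prefix.

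Total RNA, depleted of ribosomal RNA, was sequenced from 2 dissected tissues of flies kept at 25 °C, the notum region of larval wing discs (wandering L3) and pharate flight muscle (about 96 h APF, hours after puparium formation). Adult muscle precursors and disc epithelial cells are both present in the notum. All animals carried UAS-Dicer2, which strengthens RNA interference, and Mef2-GAL4, a driver active in the muscle lineage, so the disc epithelium of the notum was not targeted. The WT group carried an mCherry hairpin at attP2 (P{UAS-mCherry-RNAi}attP2), and the Rbf-KD group carried a hairpin against Rbf, P{UAS-Rbf-RNAi[GD:10696]}, over the driver, with + in place of the attP2 hairpin. Knockdown of Rbf, the fly retinoblastoma-family repressor of E2F target genes, and the other differences between these stocks cannot be told apart. Each notum genotype had 3 libraries and each muscle genotype 2. The labels do not say whether libraries came from separate animals, so p-values measure the spread between these libraries.

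Most snoRNAs guide the modification of other RNAs by base pairing. C/D box snoRNAs, bound by fibrillarin (Fib), Nop56, nop5 and the protein called hoip in flies, guide 2'-O-methylation, while H/ACA box snoRNAs, bound by the pseudouridine synthase Nop60B with NHP2, Nop10 and Gar1, guide the conversion of uridine to pseudouridine. In flies most are processed from introns of host genes, many of them ribosomal protein genes or noncoding Uhg hosts (U snoRNA host genes), and U3 and U14 act in the cleavage of the ribosomal RNA precursor rather than only in modification.

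Notum libraries held 42097050 to 55401980 gene counts, and flight muscle libraries 53864590 to 73408335. Rbf itself went against its label in muscle: its raw counts were 4346, 5179 and 4643 in notum WT, 4025, 4081 and 4336 in notum Rbf-KD, 187 and 203 in muscle WT, and 1210 and 1454 in the muscle libraries labelled Rbf-KD. Scaled by TMM (trimmed mean of M values) to CPM (counts scaled to a library of 1e6), that is 77.5, 128 and 103 in notum WT against 85.8, 80.8 and 92.8 in notum Rbf-KD, which overlap, and 4.7 and 5.63 in muscle WT against 14.9 and 13.9 in muscle Rbf-KD, which do not. Reads of the hairpin and an exchange of the muscle labels cannot be told apart by these counts; with exchanged labels every genotype direction in muscle, and with it the difference between tissues, would turn or change. In muscle, Rbf-KD below always means the libraries labelled Rbf-KD. Both notum libraries numbered 1 stood apart from the other 4 on the first principal component of all genes. The tissue labels held for the flight muscle markers: 8 genes summed to between 140461 and 153676 CPM of the library total in muscle WT and to between 26.2 and 52.0 CPM in notum WT, and none of the 8 was at 0.

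By symbol, 111 members were H/ACA box RNAs (named Psi or aca), 78 were C/D box RNAs (named Me or CD) and 48 could not be classed by name. The H/ACA RNAs were 124 to 268 bases long with a median of 140, and the C/D RNAs 46 to 140 bases with a median of 78. In the annotation 201 members lay within an intron of a host gene, 24 overlapped an exon of another gene and 12 had neither. Together they had 73 hosts. The members were spread over chromosome arms 2R with 86, 3L with 43, 3R with 43, 2L with 34, X with 30 and 4 with 1. How shared reads were counted is not given in the sources used here, so reads of host exons, and of unspliced host introns, may be counted in a snoRNA. A mature snoRNA and its host precursor cannot be told apart by these counts. Copies with near-identical sequence, such as U3:54Aa and U3:54Ab and the lettered families, may share reads and their separate values are uncertain.

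Levels per length ran from 2.17 to 8227 CPM per kb and went with class. In mean CPM of the library total (all gene counts) per kb over the 10 libraries, the median was 110 for H/ACA, 10.4 for C/D and 17.1 for unclassed RNAs. Level rose with annotated length (Spearman rho 0.65 over 237 members, as a description, since members share libraries and class goes with length). H/ACA RNAs held 54.2% of all member counts and C/D RNAs 3.65%. Members up to 80 bases long had a median of 9.14 CPM per kb, against 230.0 for those over 150 bases. The loss of short RNAs during library preparation was not tested.

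**Figure D1:**
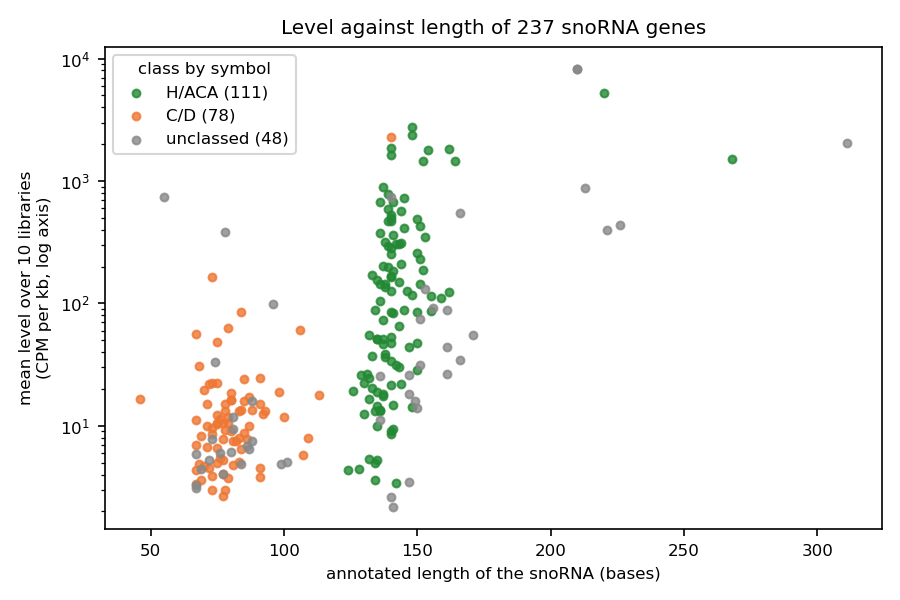
Annotated length in bases (x axis) against the mean level over 10 libraries in CPM of the library total per kb (y axis, log), 1 point per snoRNA gene coloured by class. C/D RNAs, with a median of 10.4 CPM per kb, sit to the left of and mostly below the H/ACA RNAs, with a median of 110.

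The 6 highest members per length were U3:54Aa, U3:54Ab, Psi28S-291, Psi18S-1086, Or-aca5 and Or-CD2. U3:54Aa (FBgn0065048, chromosome arm 2R, 210 bases, no host) had a mean level of 8227 CPM per kb, and its counts divided by those of U3:54Ab lay between 0.978 and 1.02 in all 10 libraries. The 3 U3 genes, U3:9B included, held between 29.0% and 31.7% of the snoRNA counts in notum WT. Psi28S-291 lies in an intron of RpL3, which encodes a protein of the large ribosomal subunit, and reached 5239 CPM per kb. Psi18S-1086 lies in an intron of Sf3b3, a splicing factor subunit gene, and reached 2775. Or-aca5 and Or-CD2, at 2370 and 2308 CPM per kb, share the host Uhg4, and Or-CD2 also overlaps an exon of Ctu1 on the opposite strand. U14:30Ea and U14:30Eb, both in Uhg2, had 9.45 and 11.9 CPM per kb and never exceeded 104 counts in a library.

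Read density within most members was below that of the host. The density of an intronic H/ACA RNA divided by the density over its host's transcript had a median of 0.303 in notum WT and 0.207 in muscle WT over 104 members, with 24 and 19 of them above the host. For 57 intronic C/D RNAs the medians were 0.117 and 0.0534, with 4 and 5 above the host. Exon overlap matters most for a few: snoRNA:660, which lies in an exon of Act57B, an actin gene, had 1.1 times the density of Act57B in notum WT and 1.6 times in muscle WT, and its counts are not separable from those of the actin mRNA.

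The tissue comparison in WT sets flight muscle against the larval notum, a mixture of muscle precursors and disc epithelium. As a share of gene counts, snoRNAs made up 2.16%, 1.43% and 1.71% of the 3 notum WT libraries and 0.111% and 0.158% of the 2 muscle WT libraries. The groups were far apart and did not overlap. In muscle WT 37 and 28 members had no count at all, and 125 and 124 reached 10 counts, against 234 to 236 reaching 10 counts in notum WT. The limit set by a count of 0 is 3 counts, or 0.0409 to 0.0713 CPM depending on the library, for counting error only. In bulk tissue, fewer cells of a type and less RNA per cell cannot be told apart.

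After TMM scaling over all 10 libraries, edgeR's quasi-likelihood F test with Benjamini-Hochberg adjustment over 13407 genes called 180 of 237 snoRNA genes lower in muscle WT and 7 higher at an adjusted p under 0.05. That is 75.9% lower, beside 43.4% of all genes tested, and 2.95% higher, beside 33.3% of all genes. The median log2 fold change was -1.81 over the members and -0.50 over all genes tested; with the 16 members at 0 in a whole group set at their counting bound, the members' median was -1.63. Because 115 members would not have reached 100 counts without notum, the minimum itself favours members that are high in notum, and this share and median rest in part on it. H/ACA RNAs had 86 of 111 lower with a median of -1.17, C/D RNAs 61 of 78 with -2.54, and unclassed RNAs 33 of 48 with -2.04. Scaling to the library total lowered the median of all genes by 2.74 on the log2 scale and that of the members to -4.49, with 233 lower and 3 higher. Of the 13407 genes tested, 10235 were lower and 1464 higher on that scale.

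Of the 8 named members that fell, 6 were H/ACA and 2 unclassed; C/D members at under 1 CPM lie outside the rule for naming. Psi28S-2444, in an intron of RpL11, had raw counts of 424, 145 and 176 in notum WT and 1 and 0 in muscle WT. All notum libraries were above both muscle libraries, and the normalised ratio of the summed counts was 86.3, with a 95% counting interval from 15.4 to 3415. Psi18S-301, on arm 3R and without a host, had 2720, 1095 and 1424 counts against 12 and 11. Its CPM was 19.0 ± 5.5 (SD, n = 3) in notum and 0.746 ± 0.015 (SD, n = 2) in muscle, a log2 fold change of -4.67 with a standard error (SE) of 0.30 and an edgeR adjusted p of 8.7e-07. Psi28S-2648 in RpL36A fell by 4.36, Psi28S-2562 in RpS20 by 4.35, CG31191-a (an exon overlap with CG31191) by 4.34, snoRNA:684 in CG10576 by 4.33, Psi18S-996 in Tudor-SN by 4.18 and Psi28S-2949 in Uhg4 by 3.84, all on the log2 scale. Groups that do not overlap were a condition for naming these members. Of the hosts of Psi28S-2444, Psi28S-2648 and Psi28S-2562, RpL11 changed by 0.50, RpL36A by 0.59 and RpS20 by 0.74 in the opposite direction on the TMM scale, each with an edgeR adjusted p under 0.05; library totals turn these 3 host values below 0, being lower by 2.74. The hosts Uhg4, CG10576 and Tudor-SN fell with their members, by 1.76, 2.20 and 1.69, while CG31191, at -0.53, did not pass the test and Psi18S-301 has no host.

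U3 fell less than most members on this scale. U3:54Aa had 180942, 83592 and 110894 counts in notum WT and 8063 and 10343 in muscle WT, with no overlap. Its log2 fold change was -1.20 ± 0.20 (SE), with an edgeR adjusted p of 0.00044, and that of U3:54Ab was -1.18. U3:9B, with 19031, 7690 and 14240 counts against 1464 and 2105, had -0.37 and did not pass the test (edgeR adjusted p = 0.23), and its TMM-scaled groups overlapped. U14:30Ea at -1.11 and U14:30Eb at -0.53 did not pass either.

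A few members went the other way. Me28S-A1322 (FBgn0015543, 73 bases, in an intron of eEF1alpha1, the gene of a translation elongation factor) had 43, 41 and 37 counts in notum WT and 480 and 419 in muscle WT. Its CPM was 0.464 ± 0.078 (SD, n = 3) in notum and 29.1 ± 1.6 (SD, n = 2) in muscle, a log2 fold change of 5.98 ± 0.20 (SE), with an edgeR adjusted p of 1.2e-08, while eEF1alpha1 itself had -1.19. The unclassed RNA abba-a, in an intron of tn (also called abba, a gene needed for muscle integrity), had 0 counts in all 3 notum WT libraries and 82 and 100 in muscle WT, which is at least 524-fold higher against a floor of 3 counts over the notum group. Its host tn rose as well, by 11.6 on the log2 scale, so abba-a and its host precursor cannot be told apart here. The exonic snoRNA:660 rose by 3.80 and its host Act57B by 3.28 on the log2 scale. Psi28S-1180 in tou, at 0.74, and Me18S-U1356c in Uhg8, at 0.66, were higher on the TMM scale and lower under library totals, at -2.02 and -2.10. Psi28S-1180 lost its call without muscle WT replicate 2, and Me18S-U1356c without notum WT replicate 2 or 3 or muscle WT replicate 2.

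The genes that serve snoRNAs moved with the tissue as well. Of 18 listed symbols of snoRNP proteins and their assembly factors 13 were in the table, and all 13 were lower in muscle WT with a median log2 fold change of -3.60. Their summed level was between 1702 and 1938 CPM of the library total in notum WT and 22.0 and 31.4 CPM in muscle WT. Fib had -3.69, Nop60B -4.16, Gar1 -4.05 and Nop56 -3.85. Of 7 Uhg host genes 6 were lower, from -1.76 for Uhg4 to -3.35 for Uhg8, and Uhg7 was higher at 1.64. The 28 ribosomal protein genes that host members were all higher on the TMM scale with a median of 0.68, but their summed level of library totals was lower, between 37318 and 45930 CPM in notum WT and between 10606 and 11002 CPM in muscle WT. Among other short RNAs, 19 of 30 snRNA genes (most of them spliceosomal, with U7 and 7SKa) and 12 of 13 tested scaRNA genes (guides of snRNA modification in Cajal bodies) were lower, and 7SKa, which acts in transcription, was higher at 0.40 and is named as the only one. Disc epithelium genes moved in the same direction, with 6 of 6 markers lower, none at 0, and a summed level of 2946 to 3640 CPM in notum WT against 55.2 to 72.9 CPM in muscle WT. The 6 adult muscle precursor markers were mixed on the TMM scale, with 3 lower in muscle WT (twi, Him and ct) and 2 higher (vg and htl). Library totals, lower by 2.74, put vg, htl, 7SKa and Uhg7 below 0. On the TMM scale all 6 hemocyte and all 4 neuron markers were higher, as were 2 of 8 fat body markers, and tracheal markers split with 2 higher and 2 lower. In library totals the neuron sum was lower, at 60.5 to 91.1 CPM in notum WT and 31.9 and 25.6 CPM in muscle WT. The hemocyte sum was higher, at 33.4 to 49.8 CPM in notum WT and 190 CPM in both muscle WT libraries, and fat body sums overlapped. The part of these cells in the snoRNA result was not tested.

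**Figure D2:**
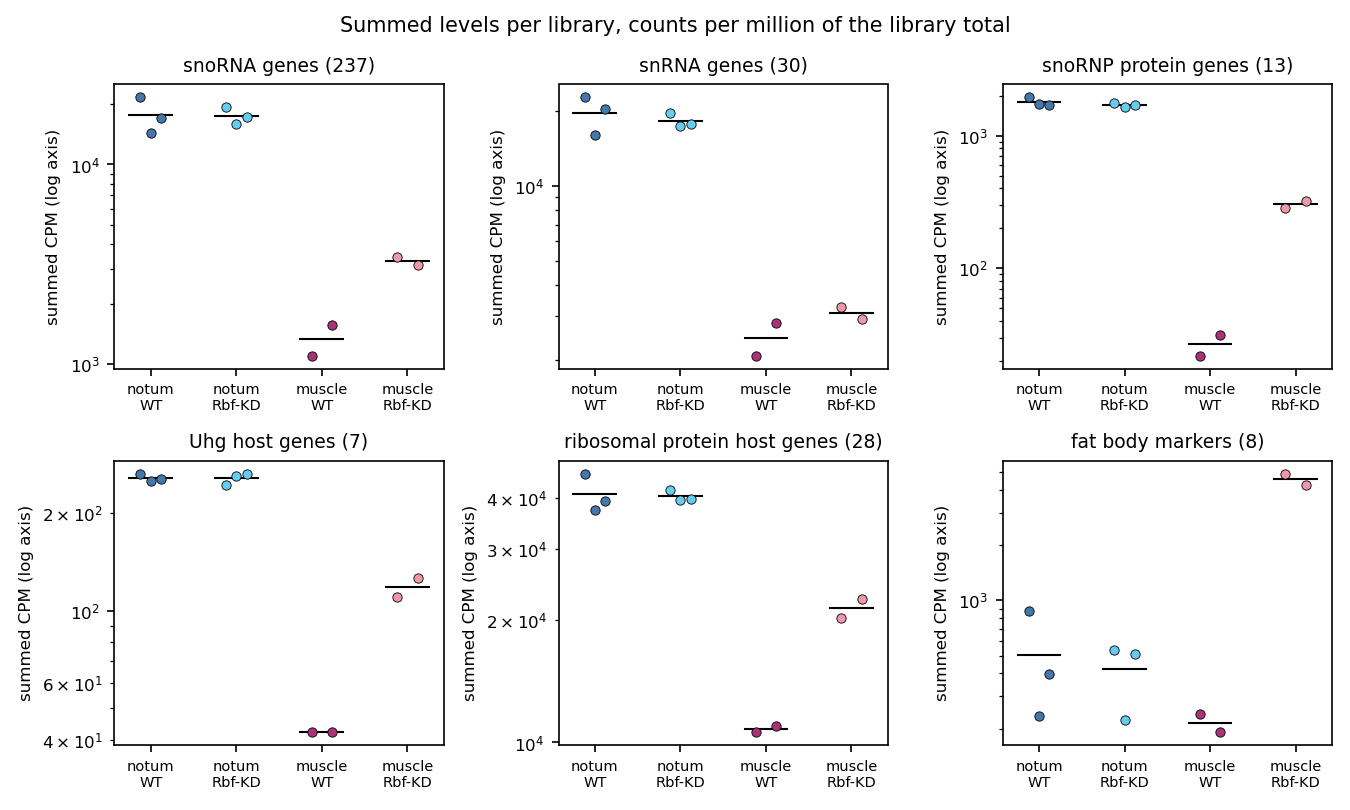
Summed CPM of the library total (y axis, log) of 6 gene lists in each library, with 1 point per library, the group mean as a line, and the number of genes in each title. snoRNA genes lie between 14302 and 21642 CPM in notum WT and at 1106 and 1579 CPM in muscle WT, with 3462 and 3153 CPM in the muscle libraries labelled Rbf-KD; fat body markers are highest in those 2.

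In notum, the comparison of Rbf-KD with WT addresses snoRNAs in the larval notum, before the adult flight muscle. The share of gene counts was 2.16%, 1.43% and 1.71% in WT and 1.93%, 1.60% and 1.74% in Rbf-KD, and the groups overlapped. edgeR's quasi-likelihood test over 12203 genes called 1 of 236 tested members higher and 0 lower, beside 0.0738% of all genes called higher and 0.0819% lower. An unadjusted p under 0.05 in edgeR was seen for 14 of the 236 members, beside 496 of the 12203 genes, so by this measure the members lie near the background. DESeq2 called 1 higher and 7 lower, limma-voom 1 higher and 0 lower, and the edgeR fit with the replicate number as a block 1 higher and 2 lower. Over all 12203 genes DESeq2 called 60 higher and 70 lower, limma-voom 10 and 9, and the blocked fit 38 and 41. By DESeq2 the share of members lower was thus above that of all genes. The median log2 fold change was -0.04, between -0.10 for H/ACA and 0.05 for C/D.

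The called gene was Psi28S-2949 (FBgn0082981, arm 2R, 155 bases, an H/ACA RNA by name in an intron of Uhg4). It had 1258, 755 and 867 counts in WT and 1783, 1779 and 1864 in Rbf-KD. Every Rbf-KD library was above every WT library. In CPM it went from 20.1 ± 2.0 to 37.7 ± 2.3 (SD, n = 3 each), a log2 fold change of 0.91 ± 0.10 (SE), with an edgeR adjusted p of 0.028, while Uhg4 had -0.11. The call was lost when any library other than WT replicate 1 was left out, with library-total scaling and in the fit of all 10 libraries, with adjusted p up to 0.318 over the alternatives. It held in the blocked fit, with an edgeR adjusted p of 0.0011, and without both replicate 1 libraries, with an edgeR adjusted p of 0.013. The other 5 intronic members in Uhg4 did not pass the test.

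Psi28S-3342 (FBgn0086667, arm X, 164 bases, no host) had the smallest p among those lower. Its counts were 38550, 17994 and 22121 in WT and 12351, 12225 and 9244 in Rbf-KD. The groups did not overlap, at 541 ± 129 and 234 ± 33 CPM (SD, n = 3 each). The log2 fold change was -1.21 (SE 0.19), with an edgeR adjusted p of 0.14, so it did not pass the test; with the replicate block the edgeR adjusted p was 0.00086, and without both replicate 1 libraries it was 0.026. CG32479-b, in an intron of Usp10, had 10201, 6146 and 7639 counts against 5376, 5550 and 5633, with a log2 fold change of -0.54 and an edgeR adjusted p of 0.15, or 0.023 with the block. Another pair of H/ACA members in Arpc2, an actin-nucleating complex gene, had -1.58 (Psi18S-640a) and -0.53 (Psi18S-640b) without passing the edgeR test. DESeq2 did call these members lower, with DESeq2 adjusted p of 2.6e-07 for Psi28S-3342 and 3.2e-06 for CG32479-b. For Psi18S-640a and Psi18S-640b the DESeq2 adjusted p was 0.0011 and 0.028. Among those higher, Me28S-C2645c and Me28S-C2645b in Uhg3 had 0.57 each and Me28S-G3113a in Sf3b3 had 0.63, with edgeR adjusted p of 1.00 for each. None of the 13 snoRNP protein genes, the 7 Uhg genes, the 28 ribosomal protein hosts or the 37 other hosts was called.

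In flight muscle the snoRNA share was 0.111% and 0.158% in WT and 0.346% and 0.315% in the libraries labelled Rbf-KD, with no overlap. On the TMM scale edgeR's quasi-likelihood test called 58 of 199 tested members higher and 4 lower. That is 29.1% higher, beside 19.4% of 10930 genes tested, and 2.01% lower, beside 20.3%. By DESeq2 and in the fits with a replicate block the share higher was below that of all genes, with counts given at the end. The median log2 fold change was 0.71 over the members tested and 0.10 over all genes. Of the rest, 38 members were too low to test. Among the tested members 68 had fewer than 10 counts in both WT libraries. These entered only through the Rbf-KD libraries, so the filter favoured members that are higher there. Of those 68, 33 were called higher, and of the other 131, 25 were. At a mean of at least 1 CPM, 23 of 90 were higher, 3 were lower and the median was 0.25.

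Most C/D calls were made at low counts. C/D RNAs had 25 of 54 tested higher and 1 lower with a median of 2.35, or 2.17 with members at 0 in WT set at their bound, but only 12 of the 54 had at least 10 counts in a WT library, and of these 2 were higher and the median was 0.30. H/ACA RNAs had 22 of 104 higher and 1 lower with a median of 0.38, and among the 97 with at least 10 counts in a WT library 21 were higher with a median of 0.37. Unclassed RNAs had 11 of 41 higher and 2 lower. Of 15 members with no count in either WT library 7 were called, with lower bounds of the fold from 3.67 to 9.64 against a floor of 3 counts over the group. Me28S-A774a in RpS12, with 24 and 47 counts in Rbf-KD, was at least 9.64-fold higher. Library-total scaling raised the log2 fold changes of all genes by a median of 1.11. TMM values of members, hosts and lists between -1.11 and 0 thus change sign on that scale. It gave 152 members higher and 0 lower, beside 7449 of 10930 genes higher and 554 lower. Leaving out 1 library left between 6 and 26 higher (9 and 26 without the first or second WT library, and 10 and 6 without the first or second Rbf-KD library), and 5 of the 58 were called in each of these 4 fits.

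**Figure D3:**
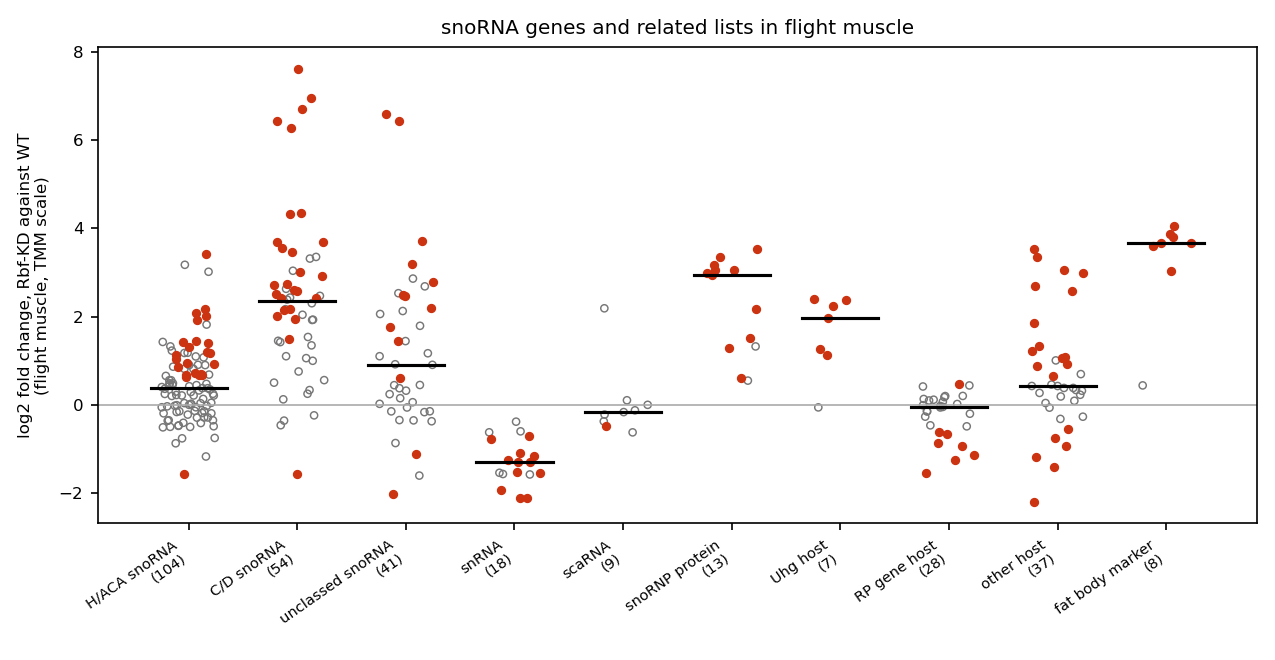
Log2 fold change of the libraries labelled Rbf-KD against WT in flight muscle on the TMM scale (y axis) for tested genes of each class or list (x axis, number tested in brackets), with filled red points past an adjusted p of 0.05, open points not past it and bars at the medians. The snoRNP protein genes lie above 0 with a median of 2.95 and the snRNA genes below it with a median of -1.28; snoRNA points above about 6 had no WT counts and their fitted values are no bound.

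Among members of at least 1 CPM, Me18S-A425 (84 bases, overlapping exons of RpL3 and of an antisense RNA) had 6 and 11 counts in WT and 146 and 200 in Rbf-KD. Both Rbf-KD libraries were above both WT libraries, which the rule for naming the highest members required. The log2 fold change was 3.02 ± 0.45 (SE), with an edgeR adjusted p of 0.0053, whereas RpL3 had -0.86. Psi18S-1377c in RpS7 had 27 and 23 counts against 245 and 268, a log2 fold change of 2.08 ± 0.29 (SE), with an edgeR adjusted p of 0.0043. Me28S-A1322, already high in muscle, went from 480 and 419 counts to 2436 and 3920, or from 11.8 ± 0.3 to 33.7 ± 5.2 CPM (SD, n = 2 each), a log2 fold change of 1.51 ± 0.16 (SE), with an edgeR adjusted p of 0.0019 beside 0.92 for eEF1alpha1. Psi28S-3436a in RpL17 went from 200 and 202 counts to 1172 and 1559, with 1.46 ± 0.15 (SE) and an edgeR adjusted p of 0.0018. These 4 kept their call in every alternative that gave them a value.

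Others depended on a library. Psi28S-1135d and Psi28S-1135b, both in RpS5a, had 2.02 and 1.41, and Psi28S-3305b in Hrb98DE, a gene of an RNA-binding protein, had 1.93. Psi28S-1135d lost its call without WT replicate 1, WT replicate 2 or Rbf-KD replicate 2, Psi28S-3305b without WT replicate 1 or either Rbf-KD library, and Psi28S-1135b without Rbf-KD replicate 2. The exonic snoRNA:660 had 1.45 and its host Act57B 1.35, and it lost its call without either WT library or Rbf-KD replicate 1. Psi28S-2949, the gene higher in notum Rbf-KD, had 8 and 15 counts in muscle WT and 123 and 133 in Rbf-KD, a log2 fold change of 2.17 with an edgeR adjusted p of 0.018, beside 1.1 for Uhg4. It lost that call without WT replicate 1 (1.72) or either Rbf-KD library.

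The lower members were few. Psi28S-3342 had 784 and 1493 counts in WT and 938 and 957 in Rbf-KD, which is 30.5 ± 15.3 and 10.3 ± 1.7 CPM on the TMM scale (SD, n = 2 each). The groups did not overlap on that scale, as naming required, and the log2 fold change was -1.56 with an edgeR adjusted p of 0.042. Under library totals it was -0.44 and not called. The unclassed abba-a had 82 and 100 counts against 24 and 94, with -2.0, and tn had -1.4. CG32479-a in Usp10 had 114 and 146 counts against 157 and 135, with -1.10 on the TMM scale and 0.02 under library totals, while Usp10 had 0.89. Me18S-G1358b in drn was the other call, at -1.55 and under 1 CPM, and is named because only 4 were lower. Psi28S-3342 lost its call without WT replicate 2 or either Rbf-KD library, abba-a without either WT library or Rbf-KD replicate 1, and CG32479-a without any of the 4 libraries.

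U3 did not pass the test in muscle. U3:54Aa had 8063 and 10343 counts in WT and 19443 and 21456 in Rbf-KD. On the TMM scale these are 245 ± 59 and 222 ± 24 CPM (SD, n = 2 each), which overlap, and the log2 fold change was -0.14 ± 0.20 (SE), with an edgeR adjusted p of 0.61. U3:54Ab had -0.16 and U3:9B -0.37, and under library totals the 3 values were 0.98, 0.96 and 0.75, each with an edgeR adjusted p under 0.05, so the direction depends on the scale. As a share of the snoRNA counts of a library, which needs no scaling, the U3 genes made up 28.0% and 26.7% in WT and 22.5% and 20.2% in Rbf-KD. In notum the U3 share was 31.7%, 29.0% and 31.1% in WT and 33.3%, 33.5% and 35.3% in Rbf-KD. The groups did not overlap in either tissue, and the shares lay in opposite directions. U14:30Ea at 0.93 and U14:30Eb at 0.03 did not pass the test in muscle.

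**Figure D4:**
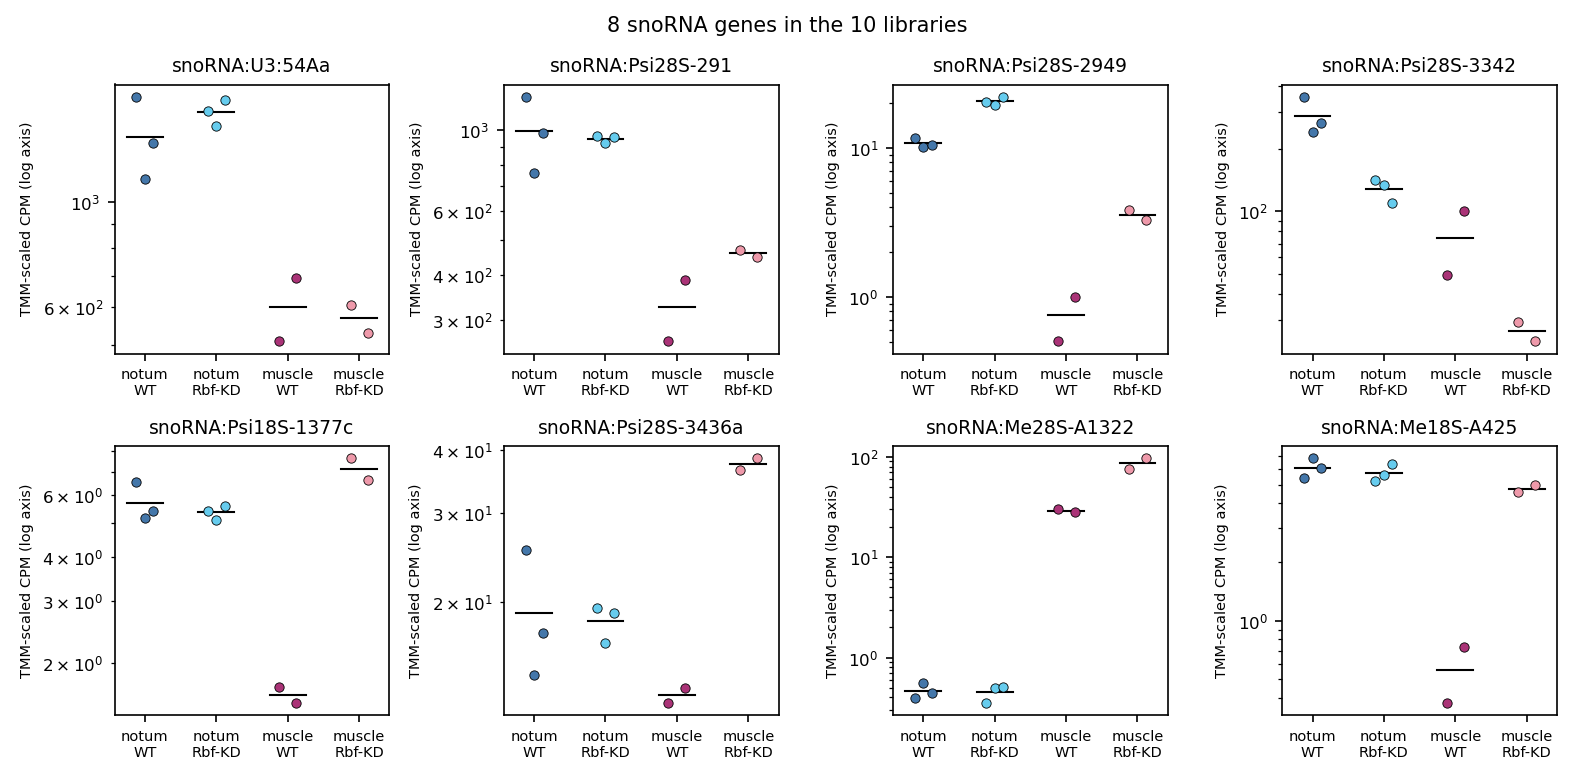
TMM-scaled CPM (y axis, log, scaled over all 10 libraries) of 8 snoRNA genes, 1 point per library with the group mean as a line. In both tissues the points labelled Rbf-KD are above WT for Psi28S-2949 and below WT for Psi28S-3342, Me28S-A1322 has between 37 and 43 raw counts in notum WT and between 419 and 480 in muscle WT, and U3:54Aa overlaps between the 2 muscle groups.

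The protein genes of the snoRNP were higher in the muscle libraries labelled Rbf-KD than in WT. Of the 13 measured, 11 were higher, 0 lower, and the median log2 fold change was 2.95, beside 0.10 over all genes. The summed level went from 22.0 and 31.4 to 286 and 322 CPM of the library total, which stayed below the notum range of 1647 to 1938. On the C/D side Fib rose by 3.36 (SE 0.30, edgeR adjusted p = 0.0015), hoip by 3.17, nop5 by 2.99 and Nop56 by 2.95. On the H/ACA side Gar1 rose by 3.53, Nop60B by 3.07, NHP2 by 3.06 and Nop10 by 1.28. Nopp140, a nucleolar chaperone of both kinds, rose by 2.17, CG10341 by 1.53 and rept by 0.62, while pont, at 0.56, and Nufip, at 1.33, did not pass. Of 7 Uhg genes 6 rose, Uhg1 by 2.40, Uhg5 by 2.38, Uhg8 by 2.25, Uhg3 by 1.97, Uhg2 by 1.27 and Uhg4 by 1.1, and Uhg7 had -0.05. Among the 28 ribosomal protein hosts 1 was higher and 7 lower, with a median of -0.05, and library totals put their sum higher in Rbf-KD, at 20230 and 22566 CPM beside 10606 and 11002. Of 18 tested snRNA genes 12 were lower on the TMM scale, yet their summed share of library totals was 2081 and 2824 CPM in WT and 3254 and 2907 CPM in Rbf-KD.

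Some markers of other cells moved in the same libraries. Of 8 fat body markers 7 were higher in the muscle libraries labelled Rbf-KD with a median log2 fold change of 3.67, none was at 0 in any library, and their sum was 240 and 191 CPM of the library total in WT and 4893 and 4280 CPM in Rbf-KD. Hemocyte markers had 2 of 6 higher, none at 0, with sums of 190 CPM in both WT libraries and 735 and 742 CPM in Rbf-KD. Of 8 flight muscle markers 7 were lower, with sums of 140461 and 153676 CPM in WT and 81454 and 75314 CPM in Rbf-KD. Of 5 tested adult muscle precursor markers 2 were higher and 2 lower, and of 4 tracheal markers 2 were lower. None of the 6 disc epithelium and 4 neuron markers was called. The part of these in the Rbf, snoRNA, snoRNP and Uhg values was not tested.

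Members and their hosts often went separate ways, and counts of the members set against counts of their own host in the same library need no scaling. In all, 15 hosts with at least 4 intronic members held 130 members. RpS7 has 7 H/ACA members, of which 6 were called higher in the muscle libraries labelled Rbf-KD with a median of 0.94, while RpS7 itself had 0.03 (edgeR adjusted p = 0.89). Per 100 counts of RpS7, its members had 26.7, 26.9 and 25.5 counts in notum WT, 28.6, 24.7 and 26.0 in notum Rbf-KD, 10.1 and 13.4 in muscle WT, and 21.5 and 19.6 in muscle Rbf-KD. Muscle WT was thus the low group, and the muscle groups did not overlap.

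The gene kra, which encodes a translation regulator, has 8 H/ACA members. Its members had 39.8, 30.5 and 31.9 counts per 100 of kra in notum WT, 6.62 and 8.64 in muscle WT, and 16.0 in both muscle Rbf-KD libraries. On the TMM scale kra fell by 1.18 in the libraries labelled Rbf-KD, and its members had a median of -0.01 with 1 of 8 called higher. RpL17, with 4 H/ACA members of which 3 were called higher, had 3.83 and 4.34 member counts per 100 in muscle WT against 7.95 and 7.38 in Rbf-KD, beside 8.84 to 13.1 in notum WT. In lola, a transcription factor gene with 4 unclassed members, the ratio was 1.61 and 2.66 in muscle WT and 4.49 and 3.63 in Rbf-KD. In RpS5a, with 14 H/ACA members of which 5 were called higher, the ratio was 21.9 and 28.7 in WT and 30.7 and 28.9 in Rbf-KD, where 1 library of each group had nearly the same value.

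Other hosts went the opposite way. Sf3b3, with 8 members, had 446 and 520 counts in muscle WT and 6076 and 9501 in Rbf-KD, and its members went from 821 and 811 per 100 host counts to 150 and 133, beside 82.4 to 111 in notum WT. These sums come mostly from Psi18S-1086, at 2775 CPM per kb beside a median of 20.3 over the 8 members, and do not describe each member. Here Sf3b3 rose by 2.69 on the log2 scale and the 6 tested members had a median of 1.21. CG10576, with 5 members, went from 42.2 and 59.2 to 26.0 and 21.0 per 100, and Arpc2, with 17 H/ACA members, from 41.6 and 43.0 to 26.3 and 30.3. Of the Arpc2 members 11 were tested in muscle, 0 were called and the median was -0.03, beside 0.43 for Arpc2, which did not pass the test. In these 3 hosts the muscle groups did not overlap.

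In the noncoding Uhg1, whose 16 members are C/D or unclassed, 10 of 12 tested members were higher, beside 19.4% of all genes tested. Their median was 3.06, beside 2.40 for Uhg1. The members had 13 and 16 counts in all in the muscle WT libraries and 250 and 313 in Rbf-KD. With so few WT counts the tested members entered mostly through the Rbf-KD libraries, so their calls and median rest in part on the filter. Per 100 counts of Uhg1 the members had 18.3 and 32.0 in WT against 41.1 and 32.2, where 1 library of each group had nearly the same value. Uhg5, with 11 C/D members, had 3 of 8 tested higher with a median of 2.45, beside 2.38 for the host. Grouped by kind of host, 17 of 34 tested members in Uhg genes, 23 of 63 in ribosomal protein genes and 18 of 90 in other genes were higher. Over all genes tested 19.4% were higher, near the share in other genes. C/D RNAs, whose WT counts were low, were 22 of the 34 in Uhg genes, so kind of host is not separated from class and filter. Of 12 with no same-strand host 0 were higher and 1 was lower. Across 168 intronic members the log2 fold changes of member and host had a Spearman rho of 0.27, and across the 98 H/ACA members 0.02, as descriptions, since members of 1 host share its value and all share the 4 libraries.

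**Figure D5:**
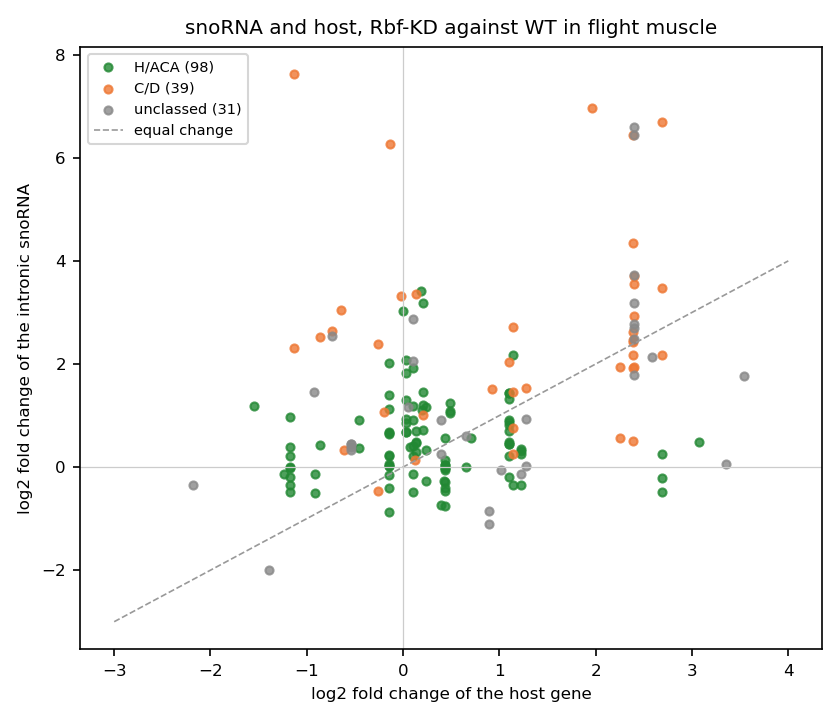
Log2 fold change of each intronic snoRNA (y axis) against that of its host gene (x axis), libraries labelled Rbf-KD against WT in flight muscle on the TMM scale, 1 point per tested member coloured by class, with a dashed line of equal change. H/ACA members of 1 host stand in vertical columns, and across the 98 of them rho was 0.02.

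The difference of the Rbf-KD effect between tissues was tested as an interaction in the fit of all 10 libraries. There 71 of 237 members had a higher log2 change (labelled Rbf-KD minus WT) in muscle than in notum and 1 a smaller one, Me18S-G1358b at -1.98, named because it was the only one. That is 30.0% larger, beside 17.2% of all genes, and 0.422% smaller, beside 13.1%. The median difference was 1.00 over the members and 0.13 over all genes. This fit also held the 15 members with no count in either muscle WT library. Of the 71, 30 were C/D RNAs, the class most limited by low muscle WT counts, so the number and the median rest in part on such members. The number larger lay between 35 and 75 when 1 library was left out. For Me18S-A425, with 586, 508 and 505 counts in notum WT and 457, 512 and 536 in notum Rbf-KD, the difference was 3.19 (SE 0.36, edgeR adjusted p = 0.00022). For Psi18S-1377c, with 706, 385 and 450 counts against 474, 465 and 472 in notum, it was 2.22 (SE 0.25, edgeR adjusted p = 0.00021). In both, the notum groups overlapped and the muscle groups did not.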

How the data were processed

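The authors deposited raw counts per transcript. Per the submitters' processing notes, build BDGP5 was used, and the tools named are Bowtie2 2.3.2 and TopHat2 2.1.1, featureCounts of Subread, DESeq2 1.14.1, FastQC and bcl2fastq 2.17.1.14. Per the labels' protocols libraries were stranded and depleted with Ribo-Zero. The annotation, strand setting and treatment of shared reads are not given in the sources used here. Of 29173 transcripts 27011 (92.6%) matched 15259 genes by identifier in a BDGP6 annotation, which also gave hosts, overlaps and lengths; coordinates are not given, since the builds differ. Each gene was represented by its transcript of highest total.

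edgeR 4.0.16 (R 4.3.3, TMM, filterByExpr with a minimum count of 10, robust quasi-likelihood F test) was fitted on all genes, in each tissue for the genotype and over all 10 libraries for tissue and interaction, with Benjamini-Hochberg adjustment over all genes tested and a threshold of 0.05. limma 3.58.1 and DESeq2 1.42.0 were alternatives; the tests were tried on simulated data. Intervals are 95% and cover counting error only.

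Named were the 6 members highest per kb, up to 8 highest and 8 lowest called members of at least 1 CPM with groups that do not overlap per comparison (with fewer than 4 calls, the 4 smallest p each way), the U3 and U14 genes, hosts, and called snoRNP and Uhg genes. Members and lists were chosen with earlier results of these data known. Replicate numbers come from the labels. In notum, deviations from the group means had correlations of 0.69, 0.61 and 0.21 between libraries of the same number. Between different numbers they ran from -0.69 to 0.51, the highest for WT 2 with Rbf-KD 3, so number 3 is not shown to be a pair. The replicate number was therefore tried as a block, and the main test has no block.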

Additional observations from a re-analysis of the deposited data

Results flagged for a closer look

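For 8 members of at least 1 CPM the Rbf-KD effect differed most between muscle and notum by the interaction test in edgeR. The muscle libraries are those labelled Rbf-KD, where Rbf itself was higher than in WT. The differences on the log2 scale, muscle minus notum, were 3.70 for Psi28S-2444, 3.31 for Me28S-A2113, 3.19 for Me18S-A425, 2.37 for CG16892-a, 2.29 for CG31191-a, 2.27 for Psi28S-3316a, 2.27 for Psi28S-1135d and 2.22 for Psi18S-1377c. Psi28S-2444 rests on 1 and 0 counts in muscle WT against 15 and 14 in Rbf-KD, a normalised ratio of 12.3 with a 95% counting interval from 2.04 to 503, so its fitted difference depends on the prior count. Me28S-A2113 had 0 and 4 counts in muscle WT and 31 and 55 in Rbf-KD, and its call was lost without any of 7 single libraries. Psi28S-3316a, in an intron of dom, had 10 and 9 counts in muscle WT and 48 and 80 in Rbf-KD, while in notum it had 250, 147 and 197 in WT and 93, 132 and 116 in Rbf-KD. CG16892-a in Aladin had 4 and 1 counts in muscle WT against 26 and 28, and CG31191-a had 2 and 3 against 22 and 37.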

How the results depend on the processing

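In notum the number of members higher was 0 under library totals and in the fit of all 10 libraries, and the number lower was 7 by DESeq2 and 1 without both replicate 1 libraries (added after seeing the data); leaving out 1 library gave 0 to 1 higher and 0 lower. In muscle, library totals gave 152 higher, 0 lower and a median of 1.82; DESeq2 gave 27 higher; no filter 2 lower and a median of 0.93; sums over transcripts 2 lower; the fit of all 10 libraries 101 higher, 7 lower and a median of 0.96; leaving out 1 library 6 to 26 higher, 0 to 5 lower and medians of 0.63 to 0.95. In the tissue comparison library totals gave 3 higher and a median of -4.49; the medians were -1.66 with DESeq2's size factors, -1.66 by DESeq2 and -1.68 by limma-voom, and -1.91 to -1.65 with 1 library left out, which gave 5 to 8 higher and 147 to 174 lower. For the interaction, library totals gave 173 higher, 0 lower and a median of 2.08; DESeq2's size factors 4 lower and 0.85; DESeq2 6 lower and 0.85; limma-voom 38 higher; members without exon overlap a median of 0.82; leaving out 1 library 35 to 75 higher, 0 to 7 lower and medians of 0.73 to 1.05. Library totals reversed CG32479-a to 0.017, U3:54Aa to 0.98, U3:54Ab to 0.96 and U3:9B to 0.75 in muscle, and Psi28S-1180 to -2.02 and Me18S-U1356c to -2.10 between tissues. With 1 muscle library left out U3:54Aa lay between -0.38 and 0.12, U3:54Ab between -0.39 and 0.082, the upper values without WT replicate 2, and U14:30Eb between -0.17 and 0.26; U14:30Eb was -0.018 with DESeq2's size factors, -0.014 by DESeq2 and -0.055 by limma-voom. The cause was not tested beyond the change of scale or the fewer libraries. Library totals also called 7449 of 10930 genes higher in muscle, 10235 of 13407 lower between tissues and 6989 of 13407 higher for the interaction. In muscle DESeq2 called 2076 of 10930 genes higher, beside 27 of 199 tested members, a smaller share. The fit of all 10 libraries called 3021 of 13407 genes higher there. In notum DESeq2 called 70 of 12203 genes lower, beside the 7 members.

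With the replicate block the counts were 1 higher and 2 lower in notum, 27 higher and 1 lower in muscle, 6 and 157 between tissues, and 59 and 1 for the interaction. In muscle the numbers did not pair the libraries (correlation -0.22), and the crossed block, added after seeing the data, gave 29 higher. Over all 10930 genes tested in muscle, the block called 1701 higher and the crossed block 2075. Low counts in muscle WT, where 37 and 28 members had none, limit the C/D class most.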
